A study of Homo sapiens with 32 samples.

Results

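The measurement described here is how the ratio of nuclear to cytoplasmic RNA changed, gene by gene, in HEK293T cells that lack IGF2BP1. HEK293T is an established human embryonic kidney line. The libraries were chosen by their labels: the nuclear and cytoplasmic RNA of the IGF2BP1 knockout, replicates 1 and 2, and of the control, replicates 1 and 2, which came from batches 1 and 2. These are 8 of the 32 libraries of the series. The knockout was 1 clone, made with plasmids that do not integrate and carry 3 guide RNAs and GFP. The control was made in parallel with a guide that targets no mammalian gene, and its labels do not say whether it was a clone or a pool. No cells received any other treatment. Replicates are repeat preparations of the same clone, so the p-values measure the spread between preparations and not between clones.

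IGF2BP1 is an RNA-binding protein of embryonic tissues and many tumours that binds mRNAs, often at sites marked by N6-methyladenosine, and is best known for stabilising them in the cytoplasm. An mRNA is transcribed, processed and exported through nuclear pores, and its share in each fraction depends on export and on decay on either side of the nuclear envelope. mRNAs of secreted and membrane proteins are translated at the endoplasmic reticulum (ER), which is continuous with the outer nuclear membrane, so where a fractionation sends the ER affects their measured ratio.

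Before any ratio was read, 2 features of the libraries had to be set out. The counts of nuclear IGF2BP1 knockout 1 were the same as those of the total RNA library of IGF2BP1 knockout 2 at each of 62703 gene identifiers, with a sum of 21232940, so at least 1 of the labels is wrong and the deposited values do not say which. Depth ranged from 19320006 to 26093403 counts over the 8 libraries, and the libraries of a group correlated with r from 0.991 to 0.993 across genes. All 12 marker genes listed for the line were above 1 CPM (counts scaled to library size, with TMM) in each library. Of 15 markers of other cell types, 10 did not pass the filter on low counts and COL1A1 and COL3A1, among the rest, were above 1 CPM throughout. The summed level of the markers was 43.7 to 43.8 CPM in nuclear control, 23.9 to 26.4 in nuclear knockout, up to 29.3 in cytoplasmic control and 24.5 to 25.6 in cytoplasmic knockout, and its part in the results was not tested. The targeted RNA was low in the knockout: IGF2BP1 was at 401 and 395 CPM in nuclear control against 27.1 and 23.5 in nuclear knockout, and at 462 and 456 CPM in cytoplasmic control against 23.7 and 23.3 in cytoplasmic knockout. Its ratio did not pass the test (log2 change 0.24 ± 0.11 (SE), adjusted p = 0.318).

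Fraction separation was weaker in the knockout of batch 2, while batch 1 lay within the difference between control libraries. Where separation is weaker, each log2 ratio is drawn towards 0 in proportion to its size. This gives a negative slope of the ratio change on the control ratio. Regressed on the log2 control ratio of batches 3 and 4, whose libraries do not enter the difference, the log2 ratio change had a slope of -0.03 in batch 1 and -0.29 in batch 2 over 19310 genes. On the same predictor the slope for control 2 minus control 1 was 0.09. Slopes within batches 3 and 4 were taken on the log2 control ratio of batches 1 and 2, so their size is not directly comparable. Control 4 minus control 3 gave -0.09. Batches 3 and 4 gave -0.47 and -0.40 for the IGF2BP2 knockout, and -0.34 and -0.20 for the IGF2BP3 knockout. MALAT1, a nuclear-speckle RNA, had a log2 ratio of 1.65 in control 1 and 2.32 in control 2, against 1.87 in knockout 1 and 1.16 in knockout 2. The library with shared counts was closer to nuclear than to total RNA by this measure: its log2 ratio to cytoplasm had a slope of 0.67 on the control ratio, beside 0.70 and 0.80 for nuclear control 1 and 2, 0.59 and 0.58 for total RNA of control 1 and 2, and 0.50 for total RNA of knockout 1. A slope does not identify a library, since the nuclear library of knockout 2 had 0.51.

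**Figure D1:**
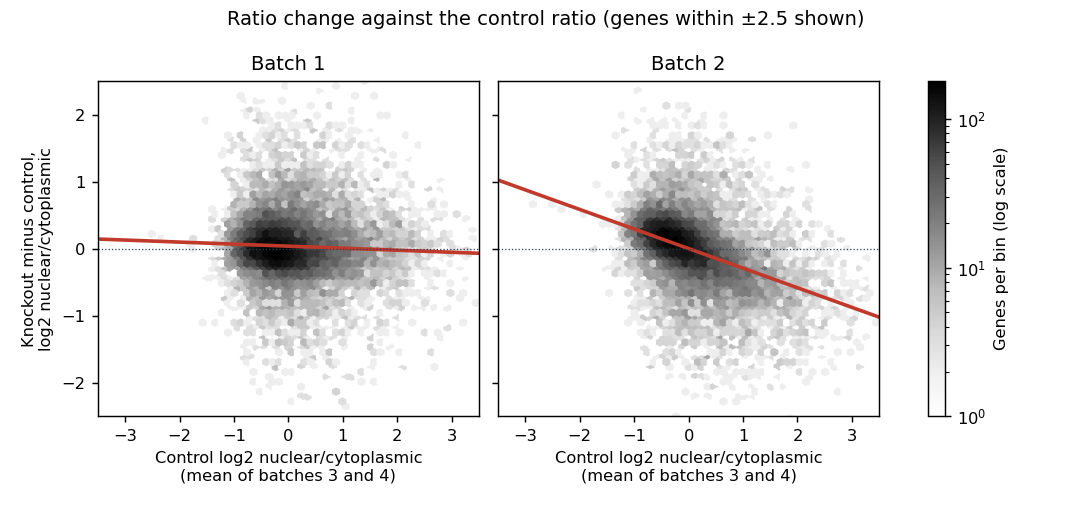
Knockout minus control difference of the log2 nuclear/cytoplasmic ratio (y axis) against the control log2 ratio of batches 3 and 4 (x axis) in each batch, with the least-squares line in red; shading gives genes per bin on a log scale. The line is nearly flat in batch 1 (slope -0.03) and falls in batch 2 (slope -0.29).

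The ratio change was therefore fitted with and without an allowance for separation. The plain fit called 577 of 19310 genes (2.99%), 367 with a higher (1.9%) and 210 with a lower ratio (1.09%), of which 25 changed at least 2-fold. That split depended on the scaling: with upper quartile factors it was 324 higher and 234 lower, with RLE size factors 230 and 371, and with library totals 178 and 380. It also turned with the filter (230 and 494 with 1 CPM in each library, 295 and 441 without a filter) and with DESeq2 (207 and 236). With each batch's line taken out, 201 genes were called (1.04%), 145 higher (0.751%) and 56 lower (0.29%), and RLE size factors gave 140 and 61. The split turned without a nuclear library of batch 2: it was 139 higher and 191 lower without nuclear control 2, and 137 and 251 without nuclear knockout 2. Without nuclear IGF2BP1 knockout 1, the library with shared counts, the plain fit called 2055 genes (10.2%) and the fit allowing for separation 265 (1.32%, 198 higher, 0.984%, and 67 lower, 0.333%). Both counts rested on the cytoplasmic libraries of batch 2. Without cytoplasmic control 2 or cytoplasmic knockout 2, edgeR called 0 genes in either fit, while 1982 and 1987 genes had an unadjusted p under 0.05 in the fit allowing for separation and 2195 and 2149 in the plain fit. A limma voom fit with its own spread for each fraction, added after these results had been seen, called 276 genes with all libraries and 20 without either of those libraries, 7 higher and 13 lower, in the fit allowing for separation. Without cytoplasmic control 1 or cytoplasmic knockout 1, edgeR called 28 and 33 genes, all higher. Calls on single genes below are those of the edgeR fit allowing for separation, and the term log2 ratio change means its estimate.

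Both batches moved the same way for most called genes. Among the 145 genes with a higher ratio, 143 were above 0 in both batches and had both knockout ratios above both control ratios. All 56 with a lower ratio were below 0 in both batches, with both knockout ratios below both controls. Over all genes tested the knockout ratios lay above both controls for 24.1% and below both for 19.8%. The calls were made on these values, so this describes them and adds no support. Across all 19310 genes the changes of batches 1 and 2 correlated at r = 0.09, and across the 10316 genes with a mean of at least 10 CPM at r = 0.41; genes are not independent replicates. Of the 201 genes, 181 were also called in the plain fit, and 110 were called in both fits with and without the shared library.

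**Figure D2:**
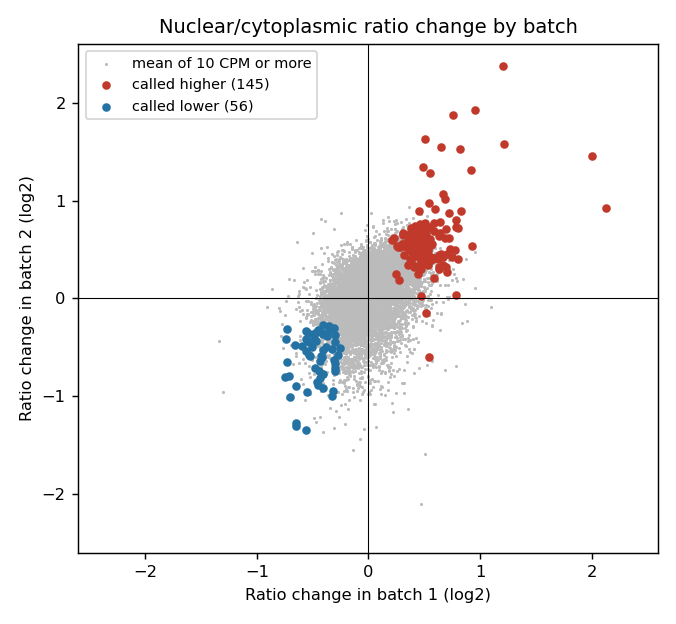
Log2 ratio change in batch 1 (x axis) and batch 2 (y axis), knockout minus control without allowance for separation, for genes with a mean of at least 10 CPM (grey) and for the genes called in the fit allowing for separation (145 higher in red, 56 lower in blue). Nearly all called genes lie at the upper right or the lower left.

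Higher ratios came from both fractions, and lower ratios mainly from the cytoplasm. The 145 genes with a higher ratio had a median log2 change of 0.30 in nuclear RNA and -0.23 in cytoplasmic RNA. Nuclear RNA rose for 91 of them and cytoplasmic RNA fell for 82, beside 16.2% and 16.9% of all genes tested. The 56 genes with a lower ratio had a median of -0.12 in nuclear and 0.41 in cytoplasmic RNA. Cytoplasmic RNA rose for 42 and nuclear RNA fell for 23, beside 15.3% and 15.1% of all genes tested. These contrasts make up the ratio itself and are not independent of it. The ratio is relative to the average RNA of each fraction, and in these bulk samples fewer cells and less RNA per cell cannot be told apart.

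Among the rises, several mRNAs encode proteins that enter the ER. The coding starts of 6 such genes and of 2 genes with a lower ratio are shown as examples of the stretch that commonly encodes a signal peptide. Capitals mark the 12 codons, among codons 2 to 35, that hold the most codons with T in the middle position; such codons encode phenylalanine, leucine, isoleucine, methionine and valine. The sequences run 5′ to 3′ from the start codon, from GENCODE 29 on GRCh38, and were picked after the values were seen, because they differ. Of the genes with an annotated coding sequence, 22.6% of those with a higher ratio, 3.85% of those with a lower ratio and 9.61% of all tested had 8 or more such codons in the stretch.
PRDX4: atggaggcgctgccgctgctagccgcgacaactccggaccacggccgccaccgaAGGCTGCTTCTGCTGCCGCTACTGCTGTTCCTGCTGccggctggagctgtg
TXNDC12: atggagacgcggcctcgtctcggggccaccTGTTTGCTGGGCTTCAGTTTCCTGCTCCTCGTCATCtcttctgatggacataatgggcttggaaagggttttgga
PCSK1N: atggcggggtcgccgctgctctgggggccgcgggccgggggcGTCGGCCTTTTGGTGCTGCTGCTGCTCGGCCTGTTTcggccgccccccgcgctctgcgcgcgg
HLA-C: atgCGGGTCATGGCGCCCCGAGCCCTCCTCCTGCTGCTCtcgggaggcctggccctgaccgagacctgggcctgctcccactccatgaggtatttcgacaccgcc
APOE: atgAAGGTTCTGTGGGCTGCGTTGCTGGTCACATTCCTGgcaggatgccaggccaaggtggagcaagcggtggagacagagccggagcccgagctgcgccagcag
RPN1: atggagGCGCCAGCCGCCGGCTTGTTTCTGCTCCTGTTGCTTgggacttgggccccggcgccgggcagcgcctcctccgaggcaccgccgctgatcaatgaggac
FIGN: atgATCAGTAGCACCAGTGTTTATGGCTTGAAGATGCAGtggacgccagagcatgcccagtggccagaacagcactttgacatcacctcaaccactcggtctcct
NR6A1: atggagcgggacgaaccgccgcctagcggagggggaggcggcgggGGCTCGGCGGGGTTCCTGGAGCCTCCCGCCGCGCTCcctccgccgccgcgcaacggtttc
The marked stretch held 10 such codons in PRDX4 (chrX:23664262-23686399, plus strand), 9 in TXNDC12 (chr1:52020131-52056171, minus strand), 10 in PCSK1N (chrX:48831094-48835633, minus strand), 7 in HLA-C (chr6:31268749-31272130, minus strand), 7 in APOE (chr19:44905754-44909393, plus strand) and 7 in RPN1 (chr3:128619970-128681075, minus strand). It held 4 in FIGN (chr2:163593396-163736012, minus strand) and 3 in NR6A1 (chr9:124517275-124771310, minus strand).

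PRDX4, a peroxidase of the ER, was at 287 and 228 CPM in nuclear control, 311 and 262 in nuclear knockout, 230 and 243 in cytoplasmic control, and 151 and 152 in cytoplasmic knockout. Its cytoplasmic libraries did not overlap between the groups, whereas its nuclear libraries did. The log2 ratio change was 0.80 ± 0.11 (adjusted p = 0.000239). HLA-C, an MHC class I heavy chain that presents peptides at the cell surface, was at 431 and 374 CPM in nuclear control and 528 and 497 in nuclear knockout. In the cytoplasm it was at 284 and 309 CPM in control and 223 and 238 in knockout, so that neither fraction overlapped between the groups. Its log2 ratio change was 0.75 ± 0.11 (adjusted p = 0.000302), and reads can be exchanged with the other HLA genes. APOE, the lipid-carrying apolipoprotein E, was low, at 8.01 and 6.62 CPM in nuclear control, 6.73 and 5.80 in nuclear knockout, 5.04 and 6.54 in cytoplasmic control, and 2.19 and 2.24 in cytoplasmic knockout. Its change of 1.20 ± 0.24 (adjusted p = 0.00764) lay in the cytoplasm, where the groups did not overlap. PCSK1N, an inhibitor of a prohormone convertase, changed by 1.00 ± 0.19 (adjusted p = 0.00572), and TXNDC12, a thioredoxin-like protein of the ER, by 0.88 ± 0.17 (adjusted p = 0.00764). TXNDC12 overlaps KTI12 on the same strand. CILP2, a secreted matrix protein, fell in both fractions (log2 change -0.59 in nuclear and -1.35 in cytoplasmic RNA), and its ratio change was 0.82 ± 0.15 (adjusted p = 0.00407).

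The other 4 of the 10 largest rises were low or share sequence. KMT2E-AS1, an antisense RNA at KMT2E, changed by 1.66 ± 0.34 from 2.26 and 3.35 CPM in nuclear control and 3.16 and 2.69 in cytoplasmic control to 3.67 and 3.43 and to 1.09 and 1.40 in the knockout. The pseudogenes RPS14P8 and RPS7P11 changed by 1.65 ± 0.33 and 1.11 ± 0.25, and their reads can belong to RPS14 and RPS7. MRPS24, a mitochondrial ribosomal protein, changed by 1.28 ± 0.30 and overlaps the readthrough gene URGCP-MRPS24. The assignment of reads to these genes is uncertain.

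**Figure D3:**
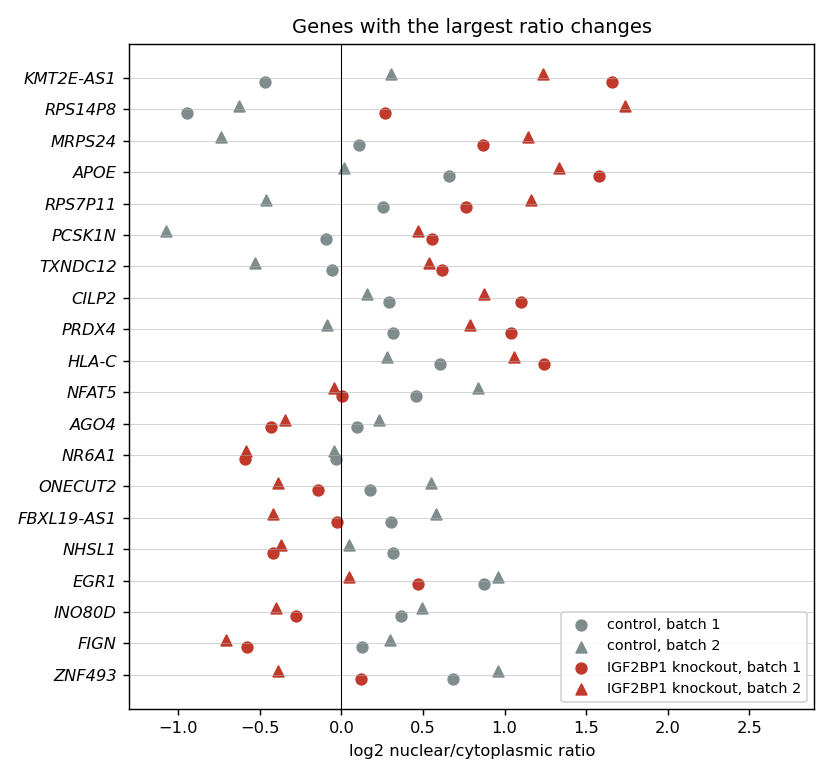
Log2 nuclear/cytoplasmic ratio (x axis, without allowance for separation) of the 10 genes with the largest rise and the 10 with the largest fall, in control (grey) and IGF2BP1 knockout (red), batch 1 as circles and batch 2 as triangles. In each of the 20 genes both knockout points lie on the same side of both control points, which the rule for naming them favours.

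The 10 largest falls ranged from -0.82 in ZNF493 and FIGN to -0.54 in NFAT5. NFAT5, a transcription factor of the response to osmotic stress, was at 65.5 and 79.5 CPM in nuclear control and 81.2 and 78.1 in nuclear knockout, and at 47.7 and 44.4 CPM in cytoplasmic control against 81.1 and 80.6 in cytoplasmic knockout. The cytoplasmic libraries did not overlap and the nuclear ones did, and the log2 ratio change was -0.54 ± 0.11 (adjusted p = 0.0121). FIGN, a microtubule-severing ATPase, was at 20.6 and 26.2 CPM in nuclear control, 17.4 and 17.2 in nuclear knockout, 18.9 and 21.2 in cytoplasmic control, and 26.1 and 28.2 in cytoplasmic knockout. It changed by -0.82 ± 0.15 (adjusted p = 0.00507), with no overlap in either fraction. NR6A1, an orphan nuclear receptor of early development, was at 29.5 and 32.5 CPM in nuclear control and 30.6 and 32.4 in nuclear knockout, and at 30.2 and 33.5 CPM in cytoplasmic control against 46.2 and 48.6 in cytoplasmic knockout. It changed by -0.57 ± 0.12 (adjusted p = 0.0133). INO80D, a subunit of a chromatin remodeller, changed by -0.68 ± 0.13, ONECUT2, a homeobox transcription factor, by -0.58 ± 0.13, and AGO4, an Argonaute protein of small RNA pathways, by -0.55 ± 0.13. In each of these 3 cytoplasmic RNA rose, by 0.72, 0.66 and 0.52 on the log2 scale. EGR1, an immediate early transcription factor, rose in both fractions, by 1.47 in nuclear and 2.14 in cytoplasmic RNA, and its ratio changed by -0.66 ± 0.14 (adjusted p = 0.0159). ZNF493, a zinc finger gene, changed by -0.82, and NHSL1 and FBXL19-AS1 by -0.62 each. FBXL19-AS1 is antisense to FBXL19, and NHSL1 overlaps HEBP2 on the other strand.

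A part of the mRNAs of ER proteins had a higher ratio. Of 35 listed, all tested, 5 had a higher and 0 a lower ratio, beside 0.751% and 0.29% of all genes tested, with a median log2 ratio change of 0.22 beside -0.01 over all genes. Nuclear RNA rose for 22 of the 35 and fell for 0, beside 16.2% and 15.1% of all genes. RPN1, a subunit of the oligosaccharyltransferase that glycosylates proteins in the ER, was at 449 and 403 CPM in nuclear control and 555 and 581 in nuclear knockout, against 355 and 387 CPM in cytoplasmic control and 333 and 349 in cytoplasmic knockout. Its ratio changed by 0.53 ± 0.10 (adjusted p = 0.00507). SSR4, a translocon-associated protein, changed by 0.43 and PDIA6, a disulfide isomerase, by 0.40. Of 40 mRNAs of matrix and adhesion proteins 2 were higher and 0 lower (AGRN, 0.48, and CD151, 0.39), with a median of 0.11. That median was -0.02 in batch 1 and 0.25 in batch 2, and 0.03 in the plain fit. The plain edgeR fit did not call AGRN (0.25, adjusted p = 0.266) but did call CD151 (0.39, adjusted p = 0.039). Without the library with shared counts, 13 ER protein mRNAs and 8 of the matrix and adhesion mRNAs were called higher, beside 0.984% of all genes, and CD151 was not (adjusted p = 0.0648). The medians were then 0.33 and 0.26, beside 0.02 over all genes.

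Further groups of proteins that pass through the ER were looked at after the values had been seen, so their counts are a description. They stand beside 0.751% called higher and 0.29% called lower among all genes tested. Of 9 MHC class I and antigen presentation genes tested, 6 had a higher ratio and 0 a lower one, with a median of 0.54. Among them were HLA-C, TAP1, a peptide transporter of the ER (0.54), and B2M, the light chain of MHC class I (0.44). Of 42 lysosomal protein genes tested, 11 had a higher ratio and 0 a lower one, with a median of 0.27. GGH, a folate hydrolase (0.65), CTSD, an aspartic protease (0.63), and CTSB, a cysteine protease (0.44), were among them. CTSD was at 99.8 and 94.1 CPM in nuclear control and 125 and 129 in nuclear knockout, and at 84.9 and 100.7 CPM in cytoplasmic control against 77.6 and 74.1 in cytoplasmic knockout. Without the library with shared counts, TAP1 (adjusted p = 0.0981) and B2M (adjusted p = 0.069) were not called, and 5 of the MHC class I group and 14 lysosomal genes were called higher.

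Some mRNAs of ribosomal and respiratory chain proteins also had higher ratios, beside 0.751% called higher and 0.29% called lower among all genes tested. Of 83 cytosolic ribosomal protein genes tested, 8 had a higher and 0 a lower ratio, with a median of 0.27, and 77 were above 0 in both batches once separation was allowed for, beside 28.5% of all genes tested. The plain fit called 38 of them higher and 0 lower, beside 1.9% and 1.09% of all genes. Cytoplasmic RNA fell for 57 and rose for 1, beside 16.9% and 15.3%. RPS27 was at 509 and 439 CPM in nuclear control and 632 and 535 in nuclear knockout, and at 628 and 562 CPM in cytoplasmic control against 501 and 503 in cytoplasmic knockout. Its ratio changed by 0.48 ± 0.12, that of RPS29 by 0.46 and that of RPS7 by 0.45, and many processed pseudogenes share sequence with these genes. Of 83 respiratory chain genes encoded in the nucleus, 6 were higher and 0 lower, with a median of 0.24 (COX7B, 0.46, ATP5MK, 0.46, and COX5B, 0.44). Of 78 mitochondrial ribosomal protein genes, 5 were higher and 0 lower, with a median of 0.19 (among them MRPL12, 0.78, and MRPL13, 0.52), and cytoplasmic RNA fell for 58. Without the library with shared counts, 5 ribosomal, 9 respiratory chain and 2 mitochondrial ribosomal protein genes were called higher, and RPS27 (adjusted p = 0.0552), RPS29 (adjusted p = 0.0958) and MRPL12 (adjusted p = 0.0735) were not. None of the 13 mRNAs encoded in mitochondria was called by edgeR (median -0.04), with 1 at an unadjusted p under 0.05, beside 14.4% of all genes. Their median log2 control ratio was -2.10, far from 0, so this result depends on the allowance for separation. The plain fit called 2 of them higher and 0 lower, with a median of 0.41 (0.14 in batch 1 and 0.69 in batch 2).

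**Figure D4:**
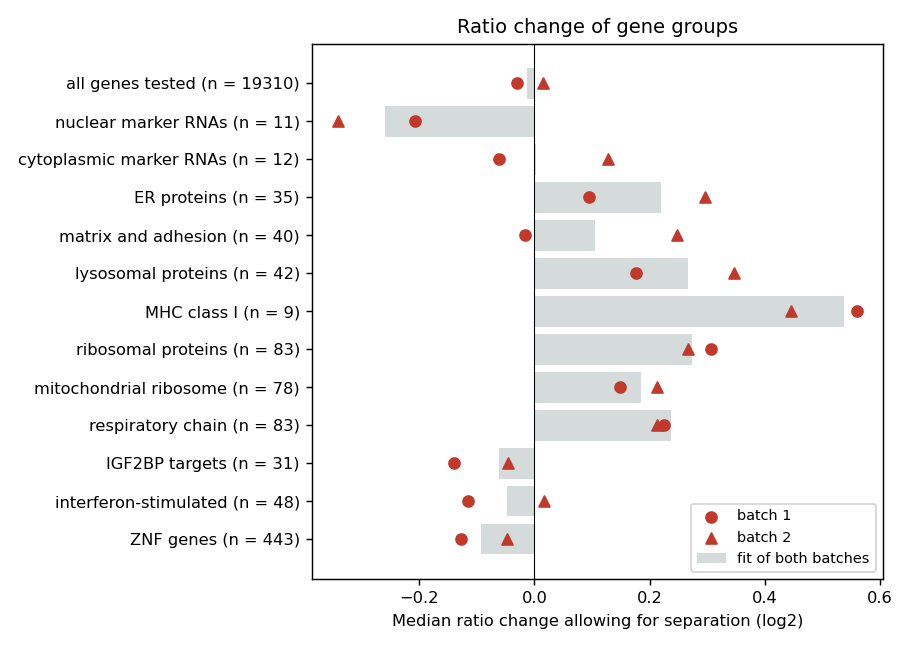
Median log2 ratio change allowing for separation (x axis) of gene groups, from the fit of both batches (bars) and in batch 1 (circles) and batch 2 (triangles); n is the number of genes tested. The MHC class I and lysosomal groups were added after the values were seen. The ER, cytosolic ribosomal, respiratory chain and mitochondrial ribosomal protein groups lie above 0 in both batches.

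In the other groups listed, counts of calls are small and stand beside 0.751% higher and 0.29% lower among all genes tested, and 14.4% at an unadjusted p under 0.05. Of 31 mRNAs described as IGF2BP targets, 1 had a higher ratio, CTNNB1 (beta-catenin, 0.38 ± 0.10, adjusted p = 0.0466), and 0 a lower one, with a median of -0.06. CTNNB1 was at 827 and 881 CPM in nuclear control and 1126 and 1131 in nuclear knockout, and at 426 and 430 CPM in cytoplasmic control against 481 and 484 in cytoplasmic knockout. The call of CTNNB1 depended on the allowance for separation: the plain edgeR fit gave 0.23 (adjusted p = 0.199). Of 48 interferon-stimulated genes, TAP1 and B2M were higher and 0 lower (median -0.05), and of 39 innate sensing genes edgeR called 0 (median -0.05), with 7 at an unadjusted p under 0.05. Of 30 mRNA export factors it also called 0 (median -0.04), with 3 at an unadjusted p under 0.05. Of 11 nuclear marker RNAs, OIP5-AS1 had a lower ratio (-0.39 ± 0.09, adjusted p = 0.0347), with a median of -0.26. OIP5-AS1 was more abundant in the cytoplasmic than in the nuclear libraries, at 107 and 107 CPM in cytoplasmic control against 71.5 and 77.6 in nuclear control. NEAT1 (-0.34, adjusted p = 0.142) and MALAT1 (-0.14, adjusted p = 0.736) did not pass the test. No call was made for 12 cytoplasmic marker RNAs (median 0.00), 28 mRNAs with detained introns (-0.06), 24 snoRNA host genes (0.13), 329 LINC-named RNAs (-0.07) or 38 replication histone genes (0.01), and 1, 5, 8, 24 and 1 of them had an unadjusted p under 0.05 in edgeR. Without the library with shared counts neither TAP1 (adjusted p = 0.0981) nor B2M (adjusted p = 0.069) was called, and 2 of the IGF2BP targets were higher. NEAT1 was then called lower (-0.49, adjusted p = 0.0213), as were DDX39B, which is on both the detained-intron and the export factor list (-0.43), and the snoRNA host gene SNHG4 (-0.42), beside 0.333% of all genes. The medians were then 0.15 for the cytoplasmic markers, 0.03 for snoRNA host genes, -0.14 for LINC-named RNAs, 0.17 for replication histones, 0.05 for export factors and 0.03 for interferon-stimulated genes. Of 443 zinc finger genes named ZNF, 1 was higher (ZNF593, 0.65) and 4 were lower (ZNF493 and ZNF280B, -0.51, among them), with a median of -0.09. COL1A1, a marker of fibroblasts, had a lower ratio (-0.62 ± 0.14, adjusted p = 0.0196), which did not pass without the shared library (adjusted p = 0.17).

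Transcript length went with the direction of the change, a pattern also noticed after the values had been seen. The genes with a higher ratio had a median longest 3′ UTR of 524 nucleotides and a median coding length of 759, those with a lower ratio 4508 and 2748, and all tested genes with an annotated coding sequence 1333 and 1440. Among the last, 14061 genes, the median log2 ratio change fell from 0.12 for 3′ UTRs under 300 nucleotides to -0.16 for those of 4800 and more. The gradient lay in the cytoplasm: the median cytoplasmic change went from -0.13 to 0.16, and the nuclear one from -0.01 to 0.03. It was present in each batch (0.08 to -0.19 in batch 1, 0.15 to -0.12 in batch 2). Coding length gave medians from 0.13 under 600 nucleotides to -0.15 at 4800 and more, with nuclear medians from 0.15 to -0.04 and cytoplasmic medians from -0.05 to 0.18. GC content gave -0.07 under 42% and 0.12 at 60% and more, and codons with T in the middle at the start gave -0.04 for 0 to 3 and 0.09 for 9 to 12 of the 12 codons. Genes with 8 or more such codons had higher medians than those with fewer both for 3′ UTRs under 1200 nucleotides (0.17 against 0.07) and for longer ones (0.01 against -0.08). These features go together, and their separate parts were not tested.

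**Figure D5:**
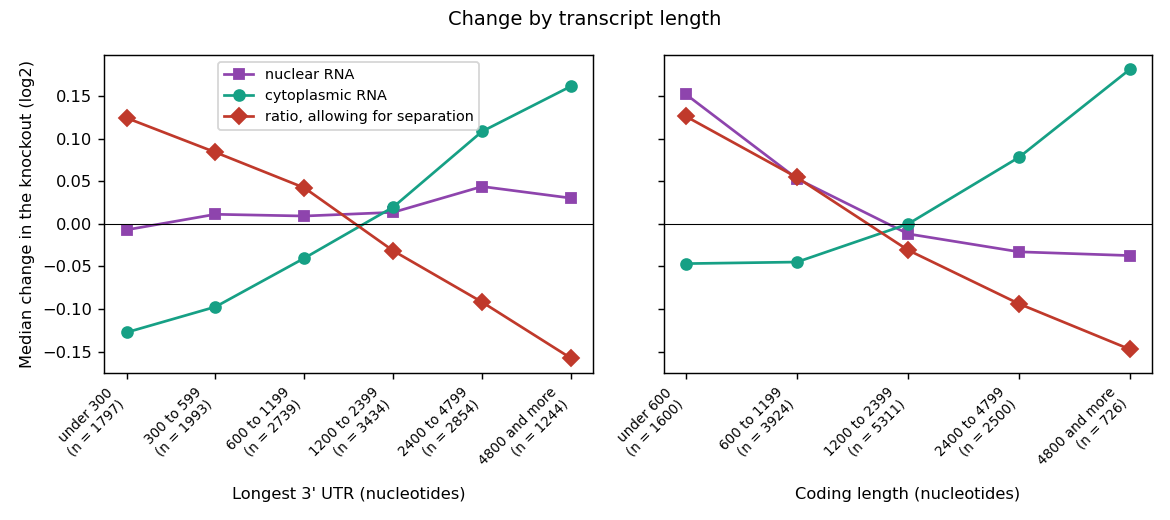
Median log2 change in the knockout (y axis) of nuclear RNA, cytoplasmic RNA and the ratio allowing for separation, by the longest annotated 3′ UTR (left) and the coding length (right), with the number of genes in each bin. The ratio falls with length in both panels, and for the 3′ UTR the cytoplasmic line carries the gradient.

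The genes that met the rule for named genes, 87 with a higher and 21 with a lower ratio, were also looked up in the other knockouts of the family, compared with control libraries of batches 3 and 4. With separation allowed for there too, 50 of the 87 were called higher without IGF2BP2 and 62 without IGF2BP3, beside 8.58% and 7.88% of all genes. Of the 21, 8 and 10 were called lower, beside 3.5% and 3.68%. Without that allowance the counts were 37 and 56 of the 87, beside 8.68% and 4.1%, and 15 of the 21 in each, beside 9.35% and 6.06%. The comparisons are not fully separate, since the separation line of each rests on the control libraries of the other. With the allowance PRDX4 changed by 0.50 without IGF2BP2 and 0.74 without IGF2BP3, HLA-C by 0.53 and 0.80, and NFAT5 by -0.36 and -0.37, while TXNDC12 had -0.03 and 0.13. In the same order and with the allowance, 13 and 23 of 35 ER protein mRNAs were called higher. So were 25 and 28 of 40 matrix and adhesion mRNAs. Lysosomal genes gave 21 and 29 of 42, with 0 lower in each of these groups. Cytosolic ribosomal protein genes gave 4 and 1 of 83 higher, and 1 and 2 lower. These counts depended on the allowance. Without it, 11 and 20 of the ER protein mRNAs were higher and 0 lower. Matrix and adhesion mRNAs then had 6 and 14 higher, and 2 and 0 lower. Lysosomal genes had 13 and 24 higher, and 4 and 1 lower. Cytosolic ribosomal protein genes had 27 and 0 higher, and 2 and 3 lower. With the allowance, medians fell from 0.14 to 0.02 and from 0.14 to -0.08 between 3′ UTRs under 300 nucleotides and those of 4800 and more. Coding length went the other way than in the IGF2BP1 knockout. From under 600 nucleotides to 4800 and more, medians rose from 0.02 to 0.25 and from -0.01 to 0.19. Without the allowance they went from 0.15 to -0.002 and from 0.02 to -0.004. When the difference itself was tested, 175 genes differed between the IGF2BP1 and IGF2BP2 knockouts (0.906%), 18 between IGF2BP1 and IGF2BP3 (0.0932%) and 52 between IGF2BP1 and the mean of both (0.269%). None of the 108 genes that met the rule differed from that mean by edgeR, while 24 of the 87 and 5 of the 21 had an unadjusted p under 0.05, beside 12.5% of all genes. With separation allowed for in all 3 knockouts, 791 genes (4.1%) differed from the mean, 5 of them among the 87 and 2 among the 21; TXNDC12 differed by 0.83 (adjusted p = 0.0374). The clones of these knockouts were prepared in other batches, so knockout and batch are separated only through the controls of each batch.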

How the data were processed

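Nuclear and cytoplasmic poly(A) RNA of HEK293T cells was sequenced as paired reads with a stranded kit, per the labels' protocols. The authors deposited raw read counts per gene; STAR, featureCounts and GRCh38 are named in the submitters' processing notes, while the annotation and strand setting are not given in the sources used here. Deposited FPKM values were not used, because each fraction was scaled in its own table.

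Counts of 20 nuclear and cytoplasmic libraries of batches 1 to 4 entered 1 edgeR 4.0.16 quasi-likelihood fit (R 4.3.3, TMM, default filter by group) with terms for genotype, batch, fraction, batch by fraction and knockout by fraction, leaving 6 residual degrees of freedom. The 8 libraries of batches 1 and 2 fix the change and the others share the spread (biological coefficient of variation 5.27%). A call needed an adjusted p (Benjamini-Hochberg) under 0.05. To allow for separation, the ratio change of each batch was regressed on the control ratio of batches 3 and 4 and the line was entered as an offset. Where a library was left out, the line of the other batch was used. Errors are standard errors from the F statistic. Log2 ratios of single libraries used a prior count of 2. Only the plain fit was tested on simulated data, which held no batch or separation differences. It called 35 of 50 genes changed 1.5-fold and 46 of 50 changed 2-fold with the right sign. There were 8 false calls over 19310 genes. The fit allowing for separation was not simulated.

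Libraries were paired by the batch in the labels. The deviations of same-numbered libraries correlated at -0.07 in nuclear and 0.00 in cytoplasmic RNA, so the pairing rests on the label. Named genes are the targeted family, the 10 largest rises and falls among genes with a symbol and a mean of at least 1 CPM in each group that were called in both fits with and without nuclear IGF2BP1 knockout 1 and had the same sign in both batches, up to 3 called genes per list, and fraction markers. Members and lists were chosen with earlier results of these data known. The MHC class I and lysosomal lists, length, GC and codon bins and printed sequences were chosen after the values were seen. Positions and lengths came from GENCODE 29 on GRCh38, matched by identifier (18479 of 19310 genes tested), which need not be the counting annotation. Alternatives changed scaling, filter, tool, batch terms, the separation line and each library.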

Additional observations from a re-analysis of the deposited data

Results flagged for a closer look

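The ratio change differed between knockouts for 175 genes (IGF2BP1 against IGF2BP2), for 18 genes (IGF2BP1 against IGF2BP3) and for 52 genes (IGF2BP1 against the mean of both), by edgeR contrasts without allowance for separation. Among the named genes, GAS5, a host gene of small nucleolar RNAs, differed from that mean by 0.85 on the log2 scale (adjusted p = 0.0371). Its log2 ratio change without that allowance was -0.16 in the IGF2BP1 knockout, -1.15 in the IGF2BP2 knockout and -0.87 in the IGF2BP3 knockout. Within the IGF2BP1 knockout it was 0.19 in batch 1, which holds the shared library, and -0.51 in batch 2. With separation allowed for in the 3 knockouts, the differences numbered 876, 503 and 791, and that of GAS5 was 0.53 (adjusted p = 0.0373).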

How the results depend on the processing

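The count of genes with a changed ratio depended strongly on single libraries. In the plain fit (577 genes) it ranged from 0 to 2257 when 1 library was left out, and in the fit allowing for separation (201 genes) from 0 to 388. The 0 came from leaving out cytoplasmic control 2 or cytoplasmic knockout 2, the 2257 from nuclear control 1 and the 388 from nuclear knockout 2. Without nuclear control 2 the counts were 321 and 330, and without nuclear knockout 2 the plain fit called 373. The plain fit called 44 genes without cytoplasmic control 1 and 41 without cytoplasmic knockout 1. A library left out also removes what its partner of the same batch and fraction adds. With the 8 libraries alone the plain fit called 0 genes (2480 at an unadjusted p under 0.05, edgeR) and the other fit 72. With limma voom the plain fit called 911; leaving out libraries in turn it called 2050 and 2048 (nuclear control 1, nuclear knockout 1), 271 and 273 (nuclear control 2, nuclear knockout 2), 221 and 221 (the cytoplasmic libraries of batch 1) and 113 and 124 (those of batch 2). Allowing for separation, limma voom called 88 without either cytoplasmic library of batch 1, 20 without either of batch 2, and 238 to 300 without a nuclear library. Allowing for separation, the count was 436 with a term for each preparation, 61 with no replicate block, 85 with a single line for both batches and 360 with a line on the control ratio of batches 1 and 2. The plain fit without the replicate block called 759 and with a term for each preparation 794. RLE, upper quartile and library total scaling, either filter and a loess curve kept the count allowing for separation between 192 and 270, and no scaling moved the median of all genes by over 0.1. None of the named genes called in the reported fit changed sign in any setting run. For the 20 genes with the largest changes, 292 of the values allowing for separation stayed past the threshold and 108 did not. Without nuclear IGF2BP1 knockout 1, differences from the IGF2BP2 knockout, the IGF2BP3 knockout and their mean numbered 54, 57 and 17; with separation allowed for in the 3 knockouts, 876, 503 and 791. With RLE the difference from IGF2BP3 numbered 81. Relative to all genes, the median of the detained-intron list was -0.049 with library totals and -0.067 without nuclear IGF2BP1 knockout 1; without that library it was -0.16 for LINC-named RNAs, 0.46 for MHC class I, -0.15 for markers of other cell types, 0.26 for ribosomal proteins, 0.017 for snoRNA host genes (0.14 with it), 0.24 for matrix and adhesion (0.12 with it) and 0.16 for replication histones (0.022 with it).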
